A study of Mus musculus with 9 samples.

Results

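The 50 proteasome genes described here are the mouse genes whose symbol begins with Psma, Psmb, Psmc, Psmd, Psme, Psmf or Psmg and a digit, with 4 pseudogenes left out, and they were taken from the 47643 genes of the count table. Of these 50 genes, 49 passed a filter on low counts that kept 18205 genes in all. By the known role of their products they comprised 14 genes of the 20S core, 17 of the 19S regulatory particle, 5 of the immunoproteasome, 3 of other activators or inhibitors, 7 of assembly chaperones, 2 of core subunits restricted to a tissue, and 2 that carry such a symbol without being proteasome subunits in the usual sense (Psmc3ip and Psme2b).

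RNA was sequenced from long-term hematopoietic stem cells (LT-HSCs), sorted as Lin-cKit+Sca1+Flk2-CD48-CD150+ from bone marrow, with 3 libraries for each of 3 genotypes. TKO marrow was lox/lox for Pik3ca and for Pik3cb, Pik3cd-/-, and carried Mx1-Cre, and so lost the p110α, p110β and p110δ catalytic subunits of phosphatidylinositol 3-kinase once Cre was induced. δKO marrow carried the same floxed and Pik3cd-null alleles without Mx1-Cre, so p110δ alone was missing. WT marrow carried Mx1-Cre and no floxed allele. All donors were C57BL/6, their marrow was transplanted into lethally irradiated B6.SJL recipients, and every recipient received 250 μg of pIpC, an inducer of interferon that switches Mx1-Cre on in all blood lineages, 2 times 48 hours apart, 4 weeks before harvest. Marrow of the 7 recipients of a genotype was pooled before staining, so the p-values below measure the spread between libraries. That spread may be technical in part or in whole, since whether the libraries came from separate pools was not stated. Only the δKO group lacked Mx1-Cre.

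The proteasome is the protease that degrades proteins tagged with ubiquitin. Its barrel-shaped core is built of alpha rings (Psma genes) around beta rings (Psmb genes), and the β1, β2 and β5 subunits (Psmb6, Psmb7 and Psmb5) hold the proteolytic sites. The regulatory particle (Psmc ATPases and Psmd non-ATPase subunits) caps the core, recognizes and unfolds the substrate, and threads it inward. In cells of the immune system, or after interferon, the inducible subunits β1i, β2i and β5i (Psmb9, Psmb10 and Psmb8) replace their standard counterparts, and the PA28 activator made of Psme1 and Psme2 can replace the regulatory particle. Protein turnover is tightly held in blood stem cells, which make little protein.

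Depth ranged from 31300343 to 60386097 counts per library. Fewer genes had a count in δKO replicate 1 (18180), in the δKO library without a replicate number (18500) and in TKO replicate 2 (19703) than in the other libraries (21362 to 22703). Values without these 3 libraries are given beside several results, and the δKO group then holds 1 library. Pik3cb averaged 31.0 ± 4.77 CPM (counts scaled to the library total) in TKO and 56.2 ± 10.1 in WT (SD, n = 3), Pik3cd averaged 72.6 ± 1.25 in TKO, 66.9 ± 26.6 in δKO and 116 ± 20.5 in WT, and Pik3ca averaged 60.2 ± 7.59 in TKO and 57.1 ± 10.1 in WT, so counts on the whole Pik3ca gene did not mark the deletion. The 10 HSC markers had counts in every library. The neutrophil markers summed to 4944 to 11740 CPM in WT, 262 to 11460 in δKO and 153 to 2998 in TKO. Mpo was the largest single part in every library but WT replicate 3, where Ngp was (3844 CPM, against 1693 of Mpo). The 5 T and NK cell markers summed to 79.9 to 232 CPM in WT, 3.87 to 193 in δKO and 24.99 to 67.1 in TKO, most of it from Nkg7. Of the T cell receptor complex, Cd3e and Cd3g were at 0 in every library and Cd3d reached 8.17 CPM in TKO replicate 1.

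Counts on proteasome genes were plentiful. The 50 genes together took 2691 to 4010 CPM of a library, and the WT, δKO and TKO means were 3336 ± 56.9, 3712 ± 258 and 3212 ± 657 CPM (SD, n = 3). The regulatory particle accounted for the largest part of these counts, with 1236 ± 118 CPM in WT, and the 20S core followed with 862 ± 62.6 CPM. In these bulk libraries, fewer cells of a type and less RNA per cell cannot be told apart.

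No proteasome gene passed the threshold in any comparison. A call required a p under 0.05 after Benjamini-Hochberg adjustment, in edgeR's quasi-likelihood test, and a change over 2-fold. By this rule 0 of 49 genes were called for TKO against WT, where 0.00549% of all genes were called. The count was 0 of 49 for TKO against δKO (0.0% of all genes) and 0 of 49 for δKO against WT (0.00549% of all genes). DESeq2, fitted to all libraries or to the groups compared, also called 0 proteasome genes in each comparison, as did every other alternative tried. By adjusted p under 0.05 alone, DESeq2 on all libraries gave 63, 341 and 79 of 18205 genes in the same order. On the groups compared it gave 449 of 17548, 83 of 16369 and 51 of 16908 genes. The smallest adjusted p of a proteasome gene over all fits was 0.158 for TKO against WT, 0.150 for TKO against δKO and 0.280 for δKO against WT. For TKO against WT, the median standard error on the log2 scale was 0.38 over the proteasome genes and 0.78 over all genes.

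At an unadjusted p under 0.05, 0 of 49 proteasome genes differed between TKO and WT, where 4.19% of all genes did, and DESeq2 gave 0 on all libraries (6.10% of all genes) and 2 on the groups compared (11.2% of all genes). Psmc5 and Psma4 did between TKO and δKO (2 of 49 genes, against 10.2% of all genes), and Psmd3 did between δKO and WT (1 of 49 genes, against 7.01% of all genes). All 3 shares lay below that of all genes, but for TKO against δKO the share was 12.2% against 9.63% of all genes without the unnumbered δKO library, and 10.2% against 9.17% without TKO replicate 2.

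Fold changes of the proteasome genes were small beside those of other genes. A log2 fold change beyond 1 in either direction was found for 1 gene in TKO against WT (Psma8), 3 in TKO against δKO (Psma4, Psmb5 and Psmg3) and 4 in δKO against WT (Psma4, Psmb5, Psmd10 and Psmg3). Over all genes tested the share beyond 1 was 22.7%, 32.8% and 29.3% in the same order. The proteasome genes were not compared with genes of like abundance, so the part of abundance in this difference was not tested.

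**Figure D1:**
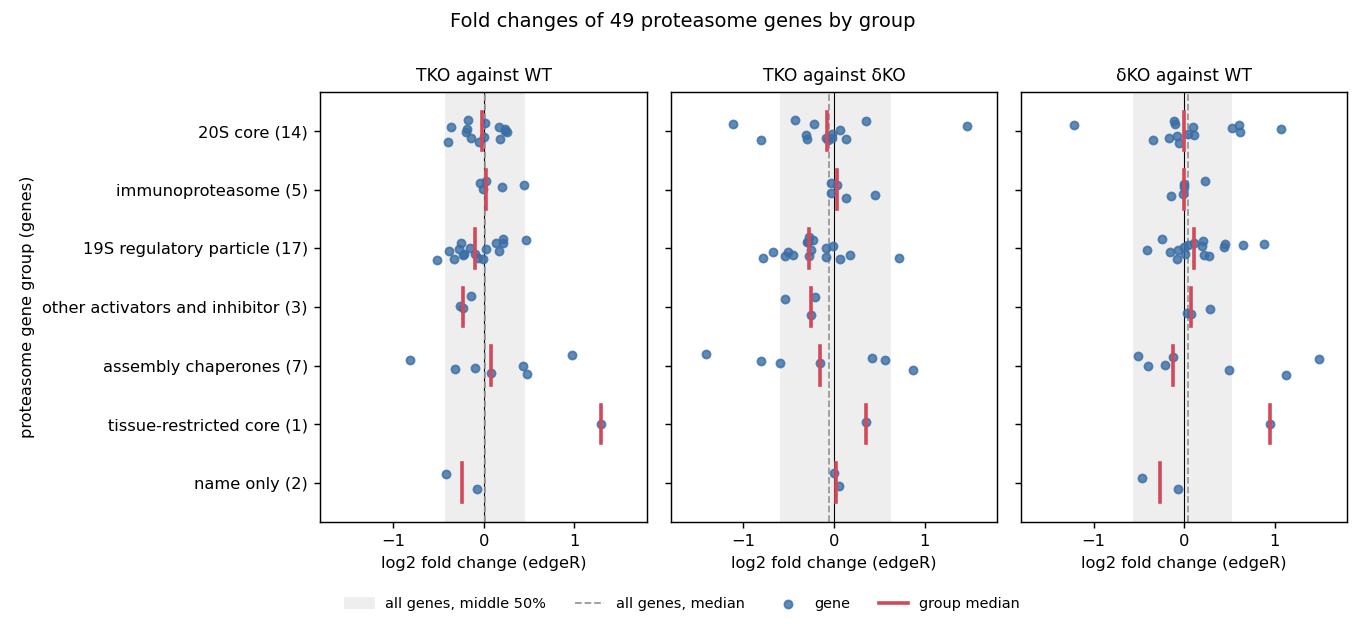
Log2 fold changes (x axis, edgeR) of 49 proteasome genes in rows by subunit group, one panel per comparison. Each point is a gene, the red bar is the group median, the dashed line is the median and the gray band is the range between the quartiles of all 18205 genes, and most points lie inside the band.

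By group, the medians lay near 0 in TKO against WT. Over all 49 genes the median log2 fold change was -0.05 (28 lower, 21 higher). It was -0.02 over the 20S core, -0.10 over the regulatory particle and 0.02 over the immunoproteasome, against 0.02 over all genes tested. Leaving out single libraries gave -0.32 (without TKO replicate 2) to 0.12 (without TKO replicate 3) over the 20S core, -0.18 (without WT replicate 3) to 0.02 (without TKO replicate 3) over the regulatory particle, and -0.14 (without TKO replicate 2) to 0.25 (without WT replicate 3) over the immunoproteasome. In TKO against δKO the regulatory particle had a median of -0.28, with 14 of its 17 genes lower in TKO, while the 20S core had -0.08, the immunoproteasome 0.03 and all genes tested -0.06. The regulatory particle stood at -0.11 with upper-quartile factors, -0.17 with the replicate block, -0.13 with genes detected as covariate, -0.12 without TKO replicate 3 and -0.46 without TKO replicate 2. The 20S core ran from -0.40 (without TKO replicate 2) to 0.10 (without δKO replicate 2) leaving out single libraries, and turned to 0.02 with upper-quartile factors. The immunoproteasome turned to -0.06 without TKO replicate 2. Without the 3 libraries with few genes detected, 1 δKO library remained. The 20S core was then at -0.66, the regulatory particle at -0.49 and the immunoproteasome at -0.07. In δKO against WT the regulatory particle had a median of 0.11, with 12 of its 17 genes higher in δKO, and all genes tested had 0.05. The median of the regulatory particle in δKO against WT turned to -0.04 with upper-quartile factors, -0.03 with the replicate block, -0.05 with genes detected as covariate and -0.01 without WT replicate 3. Both comparisons share the δKO libraries.

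The TKO libraries did not share a direction over the proteasome genes. The value of the 49 genes in a library, taken as their mean log2 CPM after centering each gene on its mean over the 9 libraries, was 0.42 in TKO replicate 2, -0.29 in TKO replicate 1 and -0.33 in TKO replicate 3, while the WT libraries lay between 0.01 and 0.06. The TKO libraries thus lay on both sides of WT. TKO replicate 2 had the highest value of all 9 libraries for 14 of the 49 genes, or 28.6%, against 13.4% over all genes. TKO replicate 3 had the lowest for 10, or 20.4%, against 5.40% over all genes. Without TKO replicate 2, the median against WT moved from -0.05 to -0.30 and 41 of 49 genes were lower in TKO, or 83.7%, where 51.3% of all genes were lower. At an unadjusted p under 0.05 there were then 2 of 49 genes, or 4.08% against 4.57% of all genes, and none was called. Without TKO replicate 3 the median was instead 0.11 and without TKO replicate 1 it was 0.03, with 32 and 28 of 49 genes higher in TKO.

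Leaving out the 3 libraries with few genes detected, an alternative added after the data were examined, gave a median of -0.30 for TKO against WT, again with 41 of 49 genes lower. At an unadjusted p under 0.05 there were 7 genes, all lower in TKO, or 14.3% against 11.6% of all genes. They were Psma5, Psma2, Psmc1, Psmd7, Psmc4, Psmb3 and Psmc5, named here after their values were seen, and edgeR's smallest adjusted p among them was 0.158. Against δKO, of which 1 library then remained and was assumed to vary like the others, 10 genes had such a p, all lower in TKO, or 20.4% against 8.83% of all genes.

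**Figure D2:**
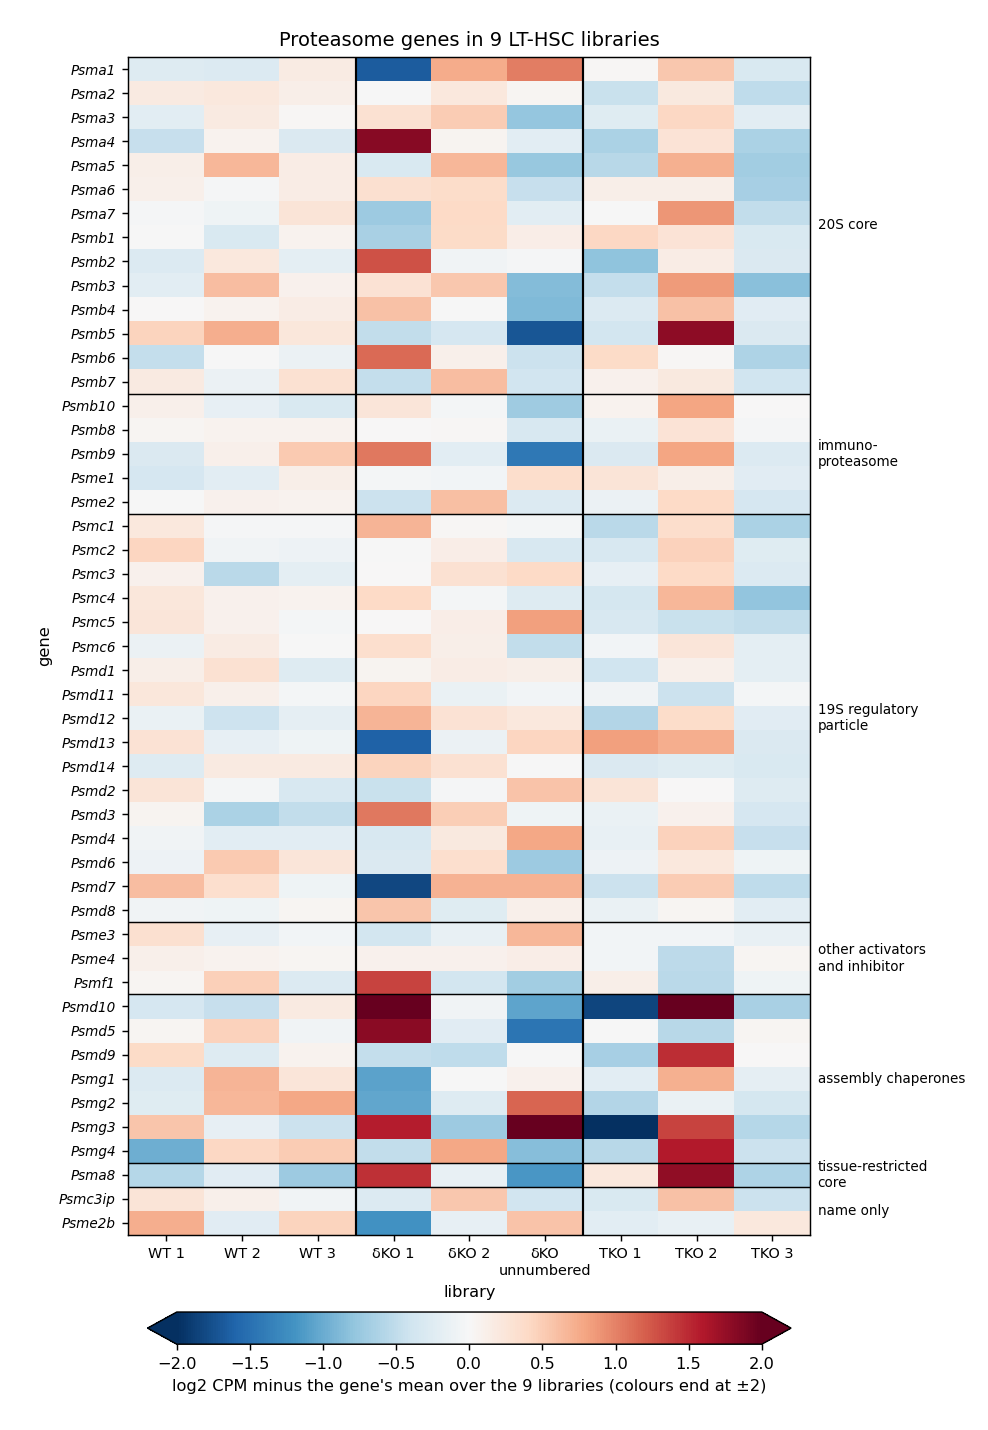
Log2 CPM of each of the 49 proteasome genes (rows, by subunit group) in each of 9 libraries (columns), minus the gene's mean over the libraries. The WT columns are pale, δKO replicate 1 and the unnumbered δKO library hold strong colors of both signs, and TKO replicate 2 is mostly red beside blue TKO replicates 1 and 3.

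Proteasome genes were spread most widely between the δKO libraries. Over the WT, δKO and TKO libraries, the median SD of log2 CPM of the proteasome genes came to 0.25, 0.56 and 0.43, against 0.39, 0.87 and 0.51 over all genes with counts in every library. The 20S core varied little in WT (0.23) and most in δKO (0.73). The assembly chaperones varied in all 3 genotypes (0.48, 1.12 and 1.09 in the same order). δKO replicate 1 held the highest of the 9 values for 15 genes, or 30.6% against 23.7% of all genes, and the lowest for 12, or 24.5% against 29.0%. The unnumbered δKO library held the highest for 10, or 20.4% against 17.1%, and the lowest for 13, or 26.5% against 19.7%.

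The immunoproteasome genes had counts in every library. To compare genes, CPM was divided by the length of the gene's principal transcript in kilobases. Psme1, a PA28 subunit, had 283 CPM per kb over all libraries, more than any 20S core gene, of which Psmb2 was highest (139 CPM per kb) and Psmb5 lowest (14.2 CPM per kb). Of the regulatory particle genes, the ATPase gene Psmc3 was highest (88.7 CPM per kb) and the ATPase gene Psmc6 lowest (11.5 CPM per kb). With the joined exons of each gene as its length, Psmc5 (70.5 CPM per kb) was highest of the regulatory particle and Psmb7 (5.62 CPM per kb) lowest of the core. Psmb10 was the lowest of the 5 immunoproteasome genes at 17.9 CPM per kb. The group medians were 52.0 CPM per kb for the 20S core, 42.2 for the immunoproteasome and 37.9 for the regulatory particle.

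Summed over the 3 catalytic positions, transcripts of the inducible subunits outnumbered those of the standard ones per length in each library. At single positions this did not hold in every library, as given below. Psmb8, Psmb9 and Psmb10 together made up 63.3% ± 2.84 of the CPM per kb of the 6 catalytic genes in WT (SD, n = 3). The share was 57.4% ± 2.73 in the δKO libraries and 62.2% ± 7.17 in the TKO libraries, and single libraries ran from 54.0% to 67.5%. The 3 δKO libraries (60.4%, 56.8% and 55.0%) lay below the 3 WT libraries (62.4%, 60.9% and 66.4%), by less than 1 percentage point at the nearest, and the groups overlapped once joined exons were used as length (WT, δKO and TKO means of 59.8%, 57.5% and 59.3%). The TKO libraries spanned the others.

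Within the β5 position, the WT, δKO and TKO means of Psmb8 were 43.7 ± 0.554, 39.5 ± 5.08 and 43.4 ± 6.43 CPM per kb, and Psmb8 was among the steadiest proteasome genes. In CPM the gene (ENSMUSG00000024338.14, chr17:34197721-34201454) was at 70.1, 71.4 and 71.8 in WT, at 68.9, 69.2 and 54.8 in δKO (replicates 1 and 2 and the unnumbered library), and at 62.5, 82.4 and 67.0 in TKO. All 3 δKO libraries lay below all 3 WT libraries, although 2 of them by little, and the TKO libraries lay on both sides. The log2 fold change of δKO against WT was -0.14 ± 0.25 (SE), with an edgeR adjusted p of 0.926 that ranged from 0.753 to 1.0 over the alternatives, and it was -0.04 without the unnumbered library.

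Psmb5 (ENSMUSG00000022193.6, chr14:54614119-54618022), the standard β5 subunit, was at 14.2, 17.3 and 12.2 CPM in WT, at 7.42, 8.26 and 3.17 in δKO, and at 8.09, 35.8 and 8.48 in TKO. Every δKO library was below every WT library, and TKO replicate 2 stood far above TKO replicates 1 and 3, which were close to the δKO values. The log2 fold change was -1.21 ± 0.68 for δKO against WT (adjusted p = 0.717, from 0.362 to 1.0 over the alternatives) and 1.47 ± 0.68 for TKO against δKO (adjusted p = 0.490, from 0.241 to 1.0), the latter carried by TKO replicate 2: without that library it was 0.39, and without the 3 libraries with few genes detected it was 0.00089. The fit without the 3 libraries held 1 δKO library. Per length, WT libraries had 2.28 to 3.25 times as much Psmb8 as Psmb5 (mean 2.75 ± 0.484) and δKO libraries 4.63 to 9.54 times (6.43 ± 2.70), while the TKO mean was 3.30 ± 1.76. With joined exons as length, TKO replicate 2 had less Psmb8 than Psmb5 (0.613 times), and the other libraries kept more.

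At the β1 position, Psmb9 averaged 93.3 ± 26.3, 92.7 ± 73.5 and 94.7 ± 43.8 CPM per kb over the WT, δKO and TKO libraries. Single libraries ran from 31.2 in the unnumbered δKO library to 174 in δKO replicate 1, so the near-equal means hid a wide spread. The standard subunit Psmb6 had 54.5 ± 8.82, 82.6 ± 47.0 and 61.2 ± 20.2 CPM per kb in the same order. Psmb9 was below Psmb6 in the unnumbered δKO library (0.68 times) and in TKO replicate 1 (0.86 times). With joined exons as length it was also below in δKO replicate 2 (0.95 times). At the β2 position, Psmb10 (16.0 ± 2.32, 15.9 ± 4.98 and 21.8 ± 7.03) and Psmb7 (17.6 ± 2.54, 16.2 ± 7.40 and 16.0 ± 3.27) were at like levels by this length, and Psmb10 was 2.09 to 3.09 times as high as Psmb7 in the genotype means with joined exons. By principal transcript, Psmb10 was below Psmb7 in WT replicate 3 (0.70 times), δKO replicate 2 (0.68) and the unnumbered δKO library (0.86). The order of Psmb10 and Psmb7 thus depends on the transcript length chosen.

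**Figure D3:**
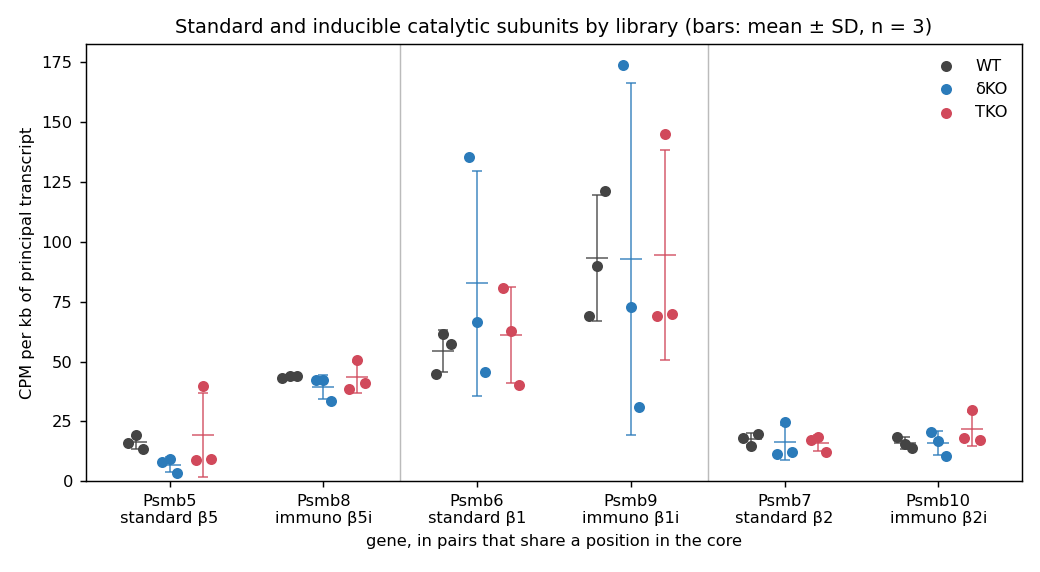
CPM per kb of principal transcript (y axis) for the standard and the inducible subunit at each catalytic position of the core. Points are libraries (3 per genotype), bars are mean ± SD; Psmb8 lies above Psmb5 in every library, Psmb9 and Psmb6 scatter widely in δKO, and Psmb7 and Psmb10 overlap.

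The PA28 genes overlapped between the genotypes. Psme1 was at 247, 269 and 335 CPM in WT, at 302, 299 and 397 in δKO, and at 373, 338 and 266 in TKO, so that each genotype held values inside the range of the others. Psme2 was at 32.3, 34.7 and 34.3 CPM in WT, at 24.3, 49.6 and 27.0 in δKO, and at 30.0, 42.9 and 25.8 in TKO. Of the 5 immunoproteasome genes, Psmb10 differed most between TKO and WT, by 0.45 ± 0.41 on the log2 scale, through TKO replicate 2 (39.2 CPM, against 18.3 to 24.3 in WT), and it was 0.15 without that library. A further 8 genes of interferon signaling and antigen processing, among them the transcription factors Irf1 and Nlrc5 and the peptide transporter genes Tap1 and Tap2, gave 0 genes at an unadjusted p under 0.05 in each comparison, where 4.19%, 10.2% and 7.01% of all genes had one in the order used above, and 8 genes are too few to read a 0 against these shares. Their median log2 fold change came to 0.21 for TKO against WT, 0.33 for TKO against δKO and 0.01 for δKO against WT. The neutrophil marker sums given above differed between these libraries, and their part in the immunoproteasome values was not tested.

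Psmc5 was the only regulatory particle gene whose TKO libraries lay apart from both other genotypes. It encodes an ATPase of the ring that unfolds substrates and lies at chr11:106256154-106263120 (ENSMUSG00000020708.12). Psmc5 was at 112, 101 and 92.0 CPM in WT, at 95.3, 104 and 168 in δKO, and at 75.9, 69.6 and 67.3 in TKO. All 3 TKO libraries were below all others, and TKO replicate 2 was not set apart from its group here. The log2 fold change was -0.52 ± 0.27 against WT (unadjusted p = 0.0770, edgeR adjusted p = 1.000, from 0.302 to 1.0 over the alternatives) and -0.79 ± 0.27 against δKO (unadjusted p = 0.0128, adjusted p = 0.465, from 0.150 to 0.949). Leaving out single libraries gave -0.59 to -0.45 against WT and -0.94 to -0.50 against δKO, the latter end without the unnumbered δKO library. Of 12 proliferation genes, 4 were lower in TKO than in WT and 5 lower than in δKO at an unadjusted p under 0.05 (4.19% and 10.2% of all genes in either direction), and their sum was 2042 to 2392 CPM in TKO, 2858 to 3547 in WT and 2849 to 4159 in δKO. The part of proliferation in the Psmc5 values was not tested.

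Few proteasome genes had groups that did not overlap. In TKO against WT, Psmc5 and Psme4 had all 3 TKO libraries below all 3 WT libraries (2 of 49 genes, where 7.47% of all genes did), and 0 of 49 had them above (6.88% of all genes). In TKO against δKO, Psmc5, Psmd14 and Psme4 lay below (3 of 49, 4.74% of all genes) and 0 of 49 above (6.98% of all genes). In δKO against WT, Psmd12 lay above (1 of 49, 4.13% of all genes), and Psmb5 and Psmb8 below (2 of 49, 7.39% of all genes).

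Sequence upstream of the genes is shown for 3 of those whose groups did not overlap, since transcription of proteasome genes is known to be driven through antioxidant response elements by Nfe2l1 and Nfe2l2. RefSeq windows of 300 bases around the start (GRCm38.p6) were found for 42 of the 50 genes. Motifs were searched on both strands, allowing overlaps, and the capitals below mark matches to TGACNNNGC. Only bases outside annotated exons are printed, in the direction of the gene: Psmb5 at chr14:54618023-54618245 on the minus strand, Psmc5 at chr11:106256080-106256153 and Psmd12 at chr11:107479278-107479483 on the plus strand.
Psmb5: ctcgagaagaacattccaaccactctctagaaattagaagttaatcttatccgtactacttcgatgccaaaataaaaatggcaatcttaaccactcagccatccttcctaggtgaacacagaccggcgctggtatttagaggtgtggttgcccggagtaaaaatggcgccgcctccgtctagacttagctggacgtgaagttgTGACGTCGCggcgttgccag
Psmc5: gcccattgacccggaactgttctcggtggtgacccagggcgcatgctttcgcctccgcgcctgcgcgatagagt
Psmd12: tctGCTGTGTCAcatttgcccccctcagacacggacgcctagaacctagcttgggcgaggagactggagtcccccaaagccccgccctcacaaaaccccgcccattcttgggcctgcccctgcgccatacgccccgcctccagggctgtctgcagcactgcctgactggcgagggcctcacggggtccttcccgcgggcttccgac

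The Psmb5 match lies 47 to 39 bases before the RefSeq start, and the Psmd12 match, on the opposite strand, 247 to 239 bases before it. The printed Psmc5 stretch of 74 bases separates it from the divergent gene Ftsj3 and holds no such match. Of the 45 windows of proteasome genes, 13.3% held TGACNNNGC (Psmb5, Psmb6, Psmc6, Psmd9, Psmd12 and Psme4), against 12.4% of all 32851 windows. The interferon-stimulated response element, searched as GAAA, any 2 bases and GAAA, was in 11.1% of them (Psmb3, Psmd4, Psmd9, Psme1 and Psmg4), against 3.44% of all. The gamma-activated site TTCNNNGAA was in 6.67% (Psmb8, Psmd2 and Psmg1), against 8.30% of all. CCAAT was in 33.3%, against 37.4% of all. Psmd14, Psmb8 and Psme4, whose groups also did not overlap, are not shown. Of these, Psme4 held TGACNNNGC in its window, and Psmd14 and Psmb8 did not. A link between the motifs and the values was not tested.

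Psmd14, the deubiquitinase of the regulatory particle, was at 45.7, 62.3 and 62.0 CPM in WT, at 74.7, 67.4 and 54.8 in δKO, and at 45.0, 46.2 and 44.4 in TKO. The TKO libraries were close to each other and below δKO by a log2 fold change of -0.54 ± 0.27 (edgeR adjusted p = 0.514, from 0.319 to 0.949 over the alternatives), and only WT replicate 1 was near them. Psme4, which encodes the activator PA200, was at 89.4, 87.2 and 85.7 CPM in WT, at 87.6, 88.2 and 91.2 in δKO, and at 79.8, 58.0 and 85.6 in TKO. Its TKO replicate 3 lay within 1 CPM of WT replicate 3, so the separation was marginal, and the log2 fold change was -0.23 ± 0.24 against WT and -0.26 ± 0.24 against δKO, or -0.08 and -0.11 without TKO replicate 2.

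In δKO against WT, the 2 smallest p-values belonged to regulatory particle genes. Psmd3, a scaffold subunit of the lid, was at 55.6, 34.8 and 38.2 CPM in WT, at 111, 75.5 and 50.5 in δKO, and at 48.9, 57.3 and 42.8 in TKO. The δKO and WT groups overlapped, and the log2 fold change was 0.88 ± 0.34 (unadjusted p = 0.0244, edgeR adjusted p = 0.699, from 0.302 to 1.0 over the alternatives), or 0.56 without δKO replicate 1. Psmd12, another lid subunit, was at 66.9, 54.7 and 64.8 CPM in WT, at 117, 89.4 and 85.0 in δKO, and at 48.5, 94.0 and 62.7 in TKO. Every δKO library was above every WT library for Psmd12, with a log2 fold change of 0.64 ± 0.30 (adjusted p = 0.699, from 0.321 to 1.0 over the alternatives), or 0.36 with genes detected as covariate. Psmd6, also of the lid, differed by -0.41 ± 0.35 on the log2 scale. It differed by -0.19 without the unnumbered δKO library, -0.24 without WT replicate 2 and -0.73 without δKO replicate 2. Its direction turned to 0.09 without the 3 libraries with few genes detected, which left 1 δKO library.

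**Figure D4:**
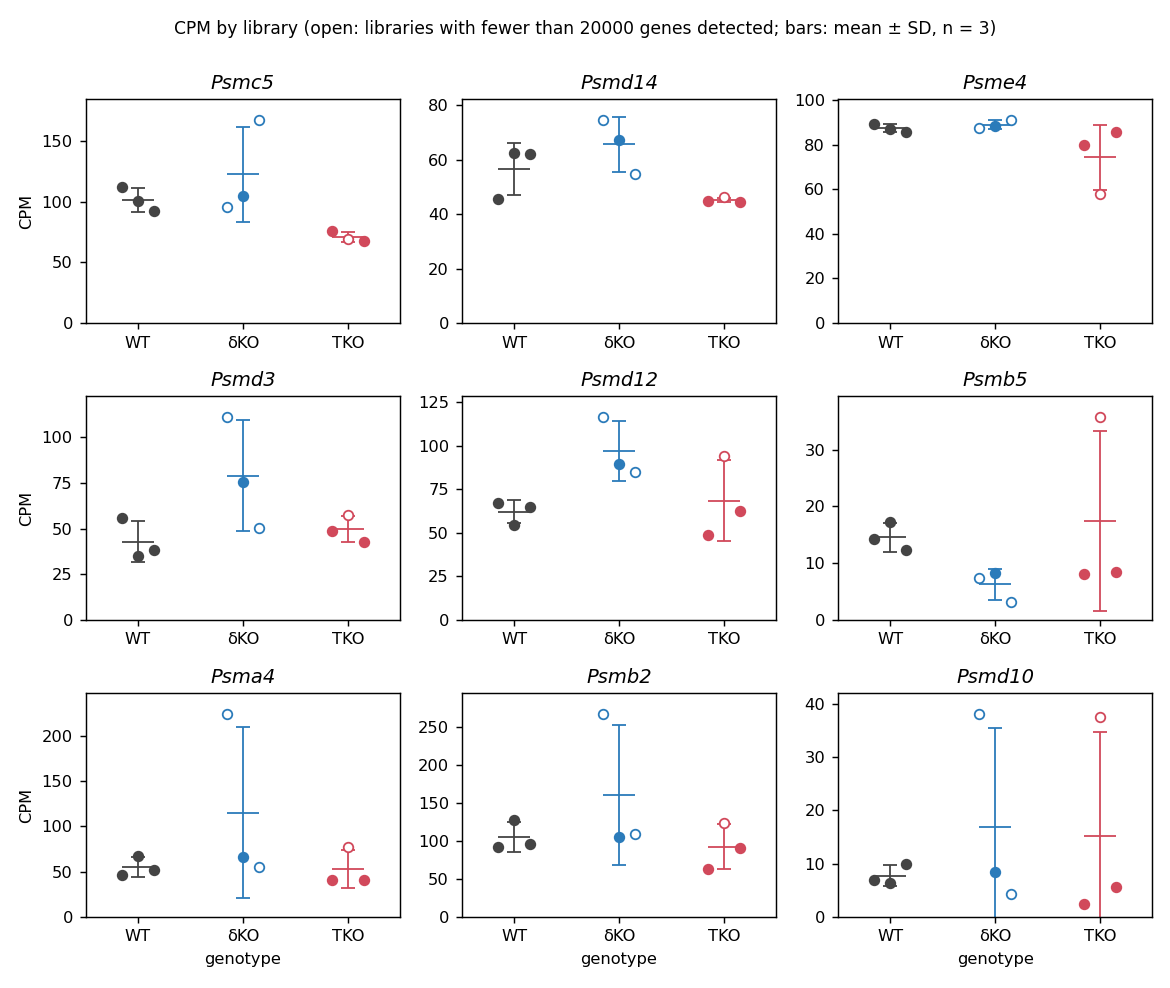
CPM (y axis) in each library by genotype for 9 proteasome genes, with bars for mean ± SD (n = 3; bars that would pass below 0 end there) and open circles for the 3 libraries with few genes detected. Psmc5 is lowest in all TKO libraries, whereas Psma4, Psmb2 and Psmd10 owe their high δKO means to 1 open circle.

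Several core genes stood out through δKO replicate 1 alone. Psma4, an alpha ring subunit, was at 225 CPM in δKO replicate 1 and at 66.0 and 55.2 in the other δKO libraries, within the range of WT (46.2, 67.1 and 51.9) and of TKO (41.1, 77.3 and 40.9). TKO differed from δKO by -1.12 ± 0.50 on the log2 scale (unadjusted p = 0.0456, edgeR adjusted p = 0.482, from 0.235 to 0.999 over the alternatives), or by -0.19 without that library. δKO differed from WT by 1.07 ± 0.50, or by 0.14 without it. Psmb2, a beta ring subunit, was at 268 CPM in δKO replicate 1 and at 63.2 to 128 in the other 8 libraries, and TKO differed from δKO by -0.80 ± 0.39 on the log2 scale, or by -0.23 without that library. Low values in the same library were those of Psma1 (13.9 CPM, against 35.9 to 89.7 elsewhere), Psmd7 (19.6 against 48.4 to 112) and Psmd13 (8.46 against 21.3 to 45.7), chosen after their values were seen. For Psmd13, a lid subunit, TKO differed from δKO by 0.71 ± 0.51 on the log2 scale, or by 0.32 without that library and 1.18 without the unnumbered δKO library. Psma2, an alpha ring subunit, was at 90.6, 92.9 and 86.5 CPM in WT and at 58.9, 91.1 and 56.0 in TKO, a log2 fold change of -0.39 ± 0.26, or -0.65 without TKO replicate 2.

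Assembly chaperones were less abundant and more scattered than the core and the regulatory particle. Per length they ran from Psmg1, which helps to form the alpha ring, at 20.7 CPM per kb down to Psmg3 at 2.80 CPM per kb. Psmd10 (gankyrin), which holds the ATPases during assembly, was at 38.2 CPM in δKO replicate 1 and 37.6 in TKO replicate 2, and at 2.45 to 9.93 in the other 7 libraries. TKO differed from WT by 0.97 ± 0.99 on the log2 scale, but by -0.95 without TKO replicate 2. Psmd9, another base chaperone, was at 50.7 CPM in TKO replicate 2 and at 11.5 to 23.7 elsewhere, so that TKO differed from δKO by 0.87 ± 0.54 on the log2 scale, or by 0.02 without that library. For Psmg2, the partner of Psmg1, TKO differed from WT by -0.81 ± 0.63, and for Psmg1 δKO differed from WT by -0.51 ± 0.47, or by -0.23 without δKO replicate 1 and -0.25 without WT replicate 2. Psmg3 rested on 5 counts in TKO replicate 1 and 205 in the unnumbered δKO library.

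Of the remaining activators, Psme3 (PA28γ, the nuclear activator) was among the most abundant proteasome genes at 153 CPM per kb, from 311 CPM in δKO replicate 1 to 630 in the unnumbered δKO library, and the inhibitor gene Psmf1 (PI31) was lowest of this group at 8.22 CPM per kb. Psma8, the alpha subunit of the testis, was at 4.15, 5.27 and 3.75 CPM in WT, at 17.0, 5.59 and 2.77 in δKO, and at 7.15, 21.1 and 4.05 in TKO. TKO differed from WT by 1.29 ± 0.83 on the log2 scale, or by 0.35 without TKO replicate 2. Psmb11, the β5 subunit of thymic epithelium, had 0 to 12 counts in a library and did not pass the filter.

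Proteins that serve the proteasome gave little more. Of 25 partner genes kept (ubiquitin, shuttle factors, deubiquitinases, the transcription factors Nfe2l1 and Nfe2l2 and others), 0 were called in each comparison by edgeR. At an unadjusted p under 0.05 there were 0 in TKO against WT, 4 lower and 1 higher in TKO against δKO (10.2% of all genes in either direction), and 1 higher and 1 lower in δKO against WT (7.01% of all genes). Ubqln1, a shuttle factor that brings ubiquitylated proteins to the proteasome, and Zfand2a, a stress-induced proteasome regulator, differed by -0.91 ± 0.32 and -1.47 ± 0.56 on the log2 scale between TKO and δKO (edgeR adjusted p = 0.465 for both, from 0.173 to 0.949 and from 0.174 to 0.949 over the alternatives). Ubqln1 stood at -0.49 without δKO replicate 1 and -0.21 without the 3 libraries with few genes detected, and Zfand2a at -0.60 without the unnumbered δKO library and -0.30 without the 3. In δKO against WT, Ddi2, the protease that activates Nfe2l1, had 0.67 ± 0.25 and the shuttle factor Ubqln2 -0.95 ± 0.42 (adjusted p = 0.699 for both, from 0.253 to 1.0 and from 0.280 to 1.0), or 0.30 and -0.53 without the 3 libraries. With genes detected as covariate Ddi2 had 0.40. The fits without the 3 libraries held 1 δKO library.

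Exons of 15 of the 50 genes overlap those of another gene in the annotation. Whether counting used strand, and how reads on shared exons were treated, was not given in the sources used here. The counts of these genes may therefore be off in either direction. Psmb9 (chr17:34181987-34187764, minus strand) overlaps the start of Tap1 (chr17:34187553-34197225, plus strand), Psma4 overlaps AY074887, Psmc3 overlaps Slc39a13, Psmd13 overlaps Sirt3, and Psme1 overlaps Emc9. Psmb5 overlaps Mir686, Psmb7 overlaps Nek6, Psmb8 overlaps Gm20496 and Psmd3 overlaps Gm12356. Psme2b is a near copy of Psme2, and how reads matching both were counted was not given in the sources used here.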

How the data were processed

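LT-HSC RNA-seq libraries (3 per genotype, 9 in all, each with 2 technical runs per the labels) were analyzed. The authors trimmed reads with Trim Galore 0.3.7, aligned them to mm10 with STAR 2.5.1b and deposited raw counts per gene, which are used here. A normalized signal that the authors deposited as well equals the counts divided by 1 factor per library (0.590 to 1.45 in the columns matched by name). How runs were joined was not given in the sources used here. One δKO column carries a number found in no label and was used as a δKO library without a replicate number.

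Proteasome genes and the lists were chosen with earlier results of these data known. Of the gene identifiers, 47224 were matched without version to GENCODE vM21 (GRCm38). Genes were filtered with filterByExpr (count minimum 10, minimum total count 15), scaled with TMM factors and fitted with edgeR 4.0.16 (R 4.3.3; quasi-likelihood, 1 mean per genotype, common biological coefficient of variation 0.805 on 6 residual degrees of freedom). Standard errors are the absolute log2 fold change divided by the square root of F. P-values are two-sided and were adjusted by Benjamini-Hochberg over 18205 genes. CPM uses library totals (31300343 to 60386097 counts) scaled by TMM factors. CPM per kb uses the principal transcript. No set test was run.

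Alternatives were DESeq2's size factors, upper-quartile factors, no filter, at least 10 counts in every library, a replicate block, the number of genes detected as covariate, robust estimation, only the groups compared, DESeq2 1.42.0, the deposited normalized signal as log2(value + 1) in limma 3.58.1, an adjusted p alone, and leaving out each library. Added after the data were examined were leaving out the 3 libraries with fewer than 20000 genes detected, and joined exons as length. Named were the catalytic and immunoproteasome genes, the 3 smallest p in each direction per comparison, the highest and lowest per kb of each group, up to 3 genes per comparison whose groups did not overlap, members that failed the filter, up to 3 partners per comparison at an unadjusted p under 0.05, and the targeted genes. Figures were drawn with matplotlib 3.10.9. Single values of some genes of the lists are not reported here.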

Additional observations from a re-analysis of the deposited data

How the results depend on the processing

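No proteasome gene was called under any of the alternatives, or by adjusted p alone. Counts at an unadjusted p under 0.05 moved. For TKO against WT (0), the count was 1 with only the groups compared, 2 with DESeq2 on the groups compared, 7 without the 3 libraries with few genes detected, and 0 to 2 leaving out single libraries (2 without TKO replicate 2, 1 without δKO replicate 1 or the unnumbered δKO library). For TKO against δKO (2), it was 4 without a filter and with DESeq2 on all libraries, 1 with DESeq2 on the groups compared, with the normalized signal in limma and with only the groups compared, 0 with genes detected as covariate, 10 without the 3 libraries, and 1 to 6 leaving out single libraries (1 without any one WT library, 5 without TKO replicate 2, 6 without the unnumbered δKO library). For δKO against WT (1), it was 2 with DESeq2's size factors, without a filter, with robust estimation, with limma, with only the groups compared and without the 3 libraries, 3 with DESeq2 on either set of libraries, 0 with the covariate, and 0 to 4 leaving out single libraries (0 without WT replicate 2 or 3, 4 without the unnumbered δKO library, 2 without δKO replicate 1 or 2 or TKO replicate 1 or 2). Over the same alternatives, the share of all genes at such a p ran from 2.46% to 11.6%, from 5.27% to 17.3% and from 1.57% to 16.1% in the 3 comparisons. The cause of these moves was not tested. Without the 3 libraries, δKO rested on 1 library.

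Without the 3 libraries, 1 δKO library remained. The median log2 fold change of TKO against δKO was then -0.44 over all proteasome genes, -0.66 over the 20S core and -0.49 over the regulatory particle. Leaving out single libraries gave -0.40 to 0.010 over all and -0.46 to -0.12 over the regulatory particle. Psmd10 in TKO against WT reversed to -0.029 with the covariate and -0.94 without the 3 libraries (-0.95 to 1.48 leaving out single libraries), and Psmd6 in δKO against WT to 0.089 without the 3 libraries. Upper-quartile factors shifted the median of all genes by 0.14 in TKO against δKO and by -0.15 in δKO against WT, and that of the proteasome genes to 0.02 and -0.12. Relative to all genes, the proteasome genes then stood at -0.07 and -0.02, against -0.04 and -0.02 before. With joined exons as length, the mean quotient of Psmb8 over Psmb5 was 3.10 in δKO and 1.33 in WT.

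Replicate numbers did not pair the libraries: deviations of same-numbered libraries correlated at -0.04 to 0.08 over genes. With the replicate number as a block, 0 proteasome genes had an unadjusted p under 0.05 for TKO against WT, 3 for TKO against δKO and 1 for δKO against WT (4.81%, 6.46% and 5.52% of all genes). None was called, and the medians were -0.07, -0.14 and 0.05 in the same order.

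With 3 libraries per genotype and a common biological coefficient of variation of 0.805, the absence of a call does not show equal levels.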
